A study of Mus musculus with 2 samples.

Results

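Potassium channel genes were followed in single-cell ATAC-seq of young and aged mouse hematopoietic stem cells (HSCs) to ask whether genes best known from neurons and muscle gained accessibility with age. The set held 91 of 20806 autosomal protein-coding genes of the mouse annotation, on 18 chromosomes, and its members were taken by name from the genes whose symbols start with Kcn. Not every gene with such a symbol was used here. Single-cell ATAC-seq cuts open chromatin with a transposase and sequences the fragments between cuts, each tagged with the barcode of a nucleus. The young library came from C57BL/6 mice that were 10 weeks old and the aged library from C57BL/6 mice that were 20 months old, females per the study's methods, with no transgene or treatment named for either. Both were sorted with the same surface phenotype (c-kit+ Sca-1+ cells that were CD150+ and lacked CD34, CD48, Flt3, IL-7 and lineage markers), and how many animals went into each library was not given in the sources used here.

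There was 1 library per age. No difference between ages therefore has a replicate check or a test. Intervals are at 95%, and those of single ratios cover counting error only. Intervals of medians are over genes or peaks, which are not all independent, and those of cell shares are over the cells of 1 library. None measures the spread between animals or libraries. Age cannot be told apart from anything else that differed between the 2 libraries. From 5028 young and 3694 aged barcodes called as cells, 4887 and 3405 with 3000 to 20000 in-peak fragments were kept, with 49049364 and 37843997 autosomal fragments. The medians were 9890 and 11020 fragments per kept cell, and 26 barcodes occurred among the kept cells of both libraries. Levels are given as fragments per 1000000 autosomal fragments (FPM), and ratios as log2 of aged over young after 1 fragment was added to each count. The summed promoter level of 7 HSC marker genes was 95 FPM in young and 92.0 FPM in aged cells. It was 2.81 and 1.29 FPM for 4 T cell markers and 5.30 and 4.99 FPM for 3 B cell markers. Sums were 6.18 and 5.34 FPM for 3 mature myeloid markers and 14.0 and 12.6 FPM for 2 erythroid markers. Promoters of 3 megakaryocyte markers were well covered, with 71.6 and 62.2 FPM. The sum for 7 neuron and glia markers was 46.4 and 56.1 FPM, with single ratios from -0.07 to 1.79 (Syt1), and that for 4 stroma and endothelium markers was 33.4 and 37.6 FPM. The part of either in the results was not tested.

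Potassium channels let potassium leave or enter the cell and so set the resting voltage of the membrane and end electrical pulses in neurons, heart and muscle. The families differ in what opens them. Voltage-gated channels open on depolarisation, calcium- and sodium-activated channels respond to ions inside the cell, inward rectifiers hold the resting voltage, two-pore-domain channels carry leak currents, and auxiliary subunits tune the others. Blood cells use a few of them: Kcna3 and Kcnn4 set the driving force for calcium entry in lymphocytes, and Kcnn4 also governs the volume of red cells. Among the members, 38 encode voltage-gated pore-forming subunits, 8 calcium- or sodium-activated channels, 15 inward rectifiers, 14 two-pore-domain channels and 16 auxiliary subunits or others.

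The following sequences show what some of the peaks with high and low ratios hold. They are the centres of an intron peak of Kcnb2 and one of Kcnj6, both among the 6 member peaks with the highest ratios, and of the peak with the lowest ratio. They come from the plus strand of GRCm38, the sequence of mm10, and capitals mark matches to 8 searched motifs.
Kcnb2 intron peak, chr1:15679001-15679300: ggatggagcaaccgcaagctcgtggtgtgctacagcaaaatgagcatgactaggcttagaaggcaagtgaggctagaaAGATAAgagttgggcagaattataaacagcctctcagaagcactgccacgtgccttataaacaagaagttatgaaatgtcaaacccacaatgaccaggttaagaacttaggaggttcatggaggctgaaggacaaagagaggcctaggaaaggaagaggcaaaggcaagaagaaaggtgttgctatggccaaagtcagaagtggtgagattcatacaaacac
Kcnj6 intron peak, chr16:94865141-94865440: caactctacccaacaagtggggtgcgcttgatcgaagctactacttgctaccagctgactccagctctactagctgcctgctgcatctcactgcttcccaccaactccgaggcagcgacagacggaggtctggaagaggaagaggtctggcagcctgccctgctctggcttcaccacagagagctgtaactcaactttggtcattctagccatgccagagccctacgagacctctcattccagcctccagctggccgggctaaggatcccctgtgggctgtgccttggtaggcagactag
Peak upstream of Kcnv2, chr19:27316256-27316555: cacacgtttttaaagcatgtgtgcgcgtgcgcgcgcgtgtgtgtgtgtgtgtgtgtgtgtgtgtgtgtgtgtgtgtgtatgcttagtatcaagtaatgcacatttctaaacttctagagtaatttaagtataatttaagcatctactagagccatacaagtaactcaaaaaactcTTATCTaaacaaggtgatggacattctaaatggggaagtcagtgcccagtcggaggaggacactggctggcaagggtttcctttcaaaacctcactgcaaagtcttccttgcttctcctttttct
The capitals in the Kcnb2 and Kcnv2 peaks are a GATA match (AGATAA or its reverse complement). The Kcnj6 peak held no match. No 31-base word of the whole Kcnb2 or Kcnj6 peak occurred elsewhere on the autosomes, while 7.5% of those of the Kcnv2 peak did.

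Of the 91 members, 67 had an entry in the table of RefSeq promoters (GRCm38.p6). For Kcnj3 and Kcnt2, which had an entry and were among the 6 highest promoter ratios of members with at least 50 promoter fragments, the 250 bases before the RefSeq start follow on the plus strand, which is the strand of both genes, with CpG pairs in capitals. Both stretches lie within the 1 kb on either side of the TSS over which promoters were counted.
Kcnj3 promoter, chr2:55435720-55435969: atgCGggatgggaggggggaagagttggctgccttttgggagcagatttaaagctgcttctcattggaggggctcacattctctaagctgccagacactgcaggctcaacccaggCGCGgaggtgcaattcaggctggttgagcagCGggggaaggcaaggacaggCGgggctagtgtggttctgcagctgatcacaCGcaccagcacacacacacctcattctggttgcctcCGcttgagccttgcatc
Kcnt2 promoter, chr1:140245468-140245717: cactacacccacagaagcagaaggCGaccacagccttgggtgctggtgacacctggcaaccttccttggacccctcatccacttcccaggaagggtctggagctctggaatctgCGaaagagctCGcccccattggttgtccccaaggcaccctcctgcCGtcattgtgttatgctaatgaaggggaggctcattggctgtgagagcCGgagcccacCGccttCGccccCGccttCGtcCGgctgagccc
These stretches held 7 and 10 CpG pairs, against a median of 8 over the 67 member promoters and 6 over all 25748 promoters of the table. None of the 67 held the core of the neuron-restrictive silencer element, the site of the repressor REST, which keeps neuronal genes off in other tissues. Over all promoters 12 (0.0466%) did, so a count of 0 is near that background and no result about the members. Kcnip4, Kcnb2 and Kcnn2, with the highest promoter ratios among members with at least 50 fragments, had no entry and were not searched. The AP-1 motif TGANTCA was in 3 of 67 (4.48%), against 6.90% of all promoters.

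Accessibility at the transcription start sites (TSSs) was low in most members. In these summed counts, more cells with an open region and more fragments per open region cannot be told apart. The median promoter level, counted within 1 kb of the TSS, was 5.34 FPM in young and 6.39 FPM in aged cells, and over all genes it was 11.0 and 11.2 FPM. The members with the most promoter fragments were similar in both libraries. Kcnab2, which encodes a beta subunit that binds voltage-gated channels, had 1682 young and 1277 aged fragments, 34.3 and 33.7 FPM, a ratio of -0.02 (-0.13 to 0.08). Kcnj2, which makes the strong inward rectifier current of heart and muscle, had 1345 and 1026 fragments, a ratio of -0.02 (-0.14 to 0.10). Kcnk5, Kcnq5, Kcnn3 and Kcnab3 lay between -0.13 and -0.03, and Kcnk12, also among them, was lower and is described below.

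**Figure D1:**
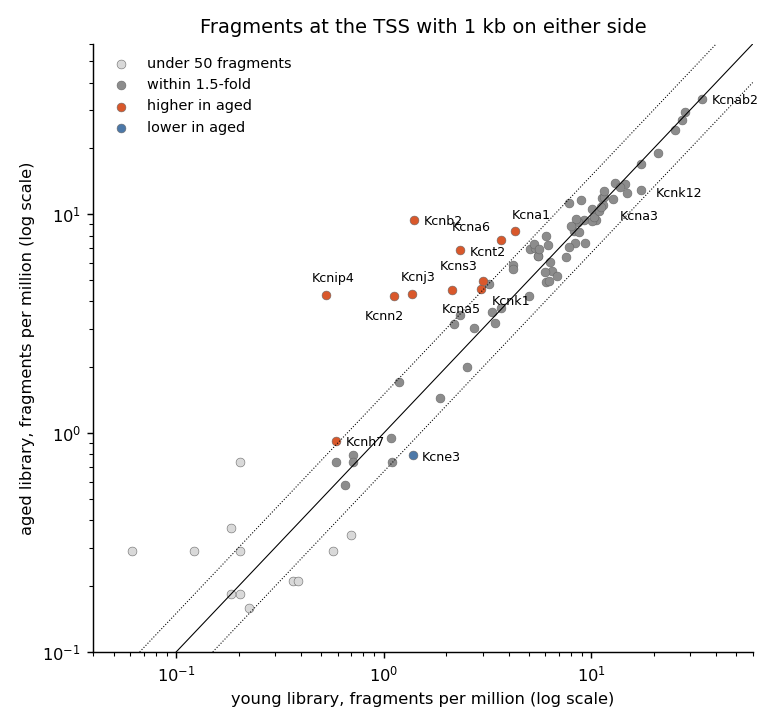
Promoter level of each of the 91 members in the young (x axis) and aged library (y axis), in FPM on log scales, with the diagonal and the 1.5-fold limits as lines. Colours give the call at 1.5-fold, pale points have under 50 fragments, and the coloured points above the upper line have low levels in the young library, 0.530 FPM for Kcnip4 and 1.41 FPM for Kcnb2.

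Differences stood among the promoters with little signal. A promoter was called higher or lower where the ratio passed 1.5-fold with at least 50 fragments over both libraries, and 79 members had that many. Of these, 11 (13.9%) were higher in the aged library, against 3.67% of all genes, and 1 was lower, against 1.52% of all genes. The 11 were Kcnip4, Kcnb2, Kcnn2, Kcnj3, Kcnt2, Kcna5, Kcna6, Kcna1, Kcns3, Kcnk1 and Kcnh7. The median ratio over all members was 0.05 (-0.05 to 0.16), and that over all genes with a fragment was -0.08.

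Kcnip4 encodes a calcium-binding protein that attaches to the A-type channels of the Kcnd family. Its promoter held 26 young and 162 aged fragments, 0.530 and 4.28 FPM, a ratio of 2.97 (2.41 to 3.67). Kcnb2, a delayed rectifier subunit of brain and smooth muscle, went from 69 young to 357 aged fragments, 1.41 and 9.43 FPM, a ratio of 2.73 (2.37 to 3.14). In young HSCs a window of this size outside peaks would hold 0.249 FPM on average. Kcnn2, a small-conductance calcium-activated channel that shapes the pause after a nerve impulse, had 55 and 160 promoter fragments, a ratio of 1.90 (1.46 to 2.38). Kcnj3, a subunit of the G-protein-gated inward rectifier of the atrium and of neurons, had 67 and 164 fragments, a ratio of 1.65 (1.247 to 2.10). Kcnt2, a sodium-activated channel, had 115 and 259 fragments, a ratio of 1.54 (1.22 to 1.88).

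Kcna1, Kcna5 and Kcna6, Shaker-type voltage-gated genes that stand side by side on chromosome 6, were all higher in the aged library. Their promoters held 211, 105 and 180 young and 317, 171 and 288 aged fragments, with ratios of 0.96 (0.71 to 1.22), 1.07 (0.72 to 1.44) and 1.05 (0.78 to 1.33). As neighbours they are not separate observations. Kcnh7 passed 1.5-fold on 29 and 35 fragments only, and its interval (-0.11 to 1.41) includes no difference. The single lower promoter was Kcne3, an auxiliary subunit of epithelia, with 68 young and 30 aged fragments, 1.39 and 0.793 FPM, a ratio of -0.78 (-1.48 to -0.17). Among promoters with at least 50 fragments the 5 next lowest, Kcnj15, Kcnk12, Kcns2, Kcnu1 and Kcnh6, lay between -0.55 and -0.34 and did not pass 1.5-fold.

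Whole genes were compared over the gene body with 20 kb on either side, a median of 72.3 kb for members and 57.6 kb for all genes. A gene window was called higher where its level was at least 25% above that in young cells, and lower where it was at least 20% below it, with at least 500 fragments over both libraries, which 90 members had. In the aged library 18 (20.0%) were higher, against 4.7% of all genes, and 1 was lower, against 0.797% of all genes. The median ratio over members was 0.00 (-0.07 to 0.09), and that over all genes was -0.06, and 46 of the 91 members lay above 0.00. With each cell thinned at random to 3000 fragments, 79 windows had enough fragments, and 10 of them (12.7%) were higher, against 3.19% of all genes. Of the members, 10 passed in both promoter and window and 19 in either. The promoter lies in the window, so promoter and window counts are not independent. The same shares over all genes were not taken, so 10 and 19 are no result about the members. Windows of 8 members overlapped that of another member (Kcnj9 with Kcnj10, Kcnj1 with Kcnj5, Kcnip1 with Kcnmb1, Kcnj2 with Kcnj16), none of them among the 18, and 35 windows held the TSS of another gene.

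**Figure D2:**
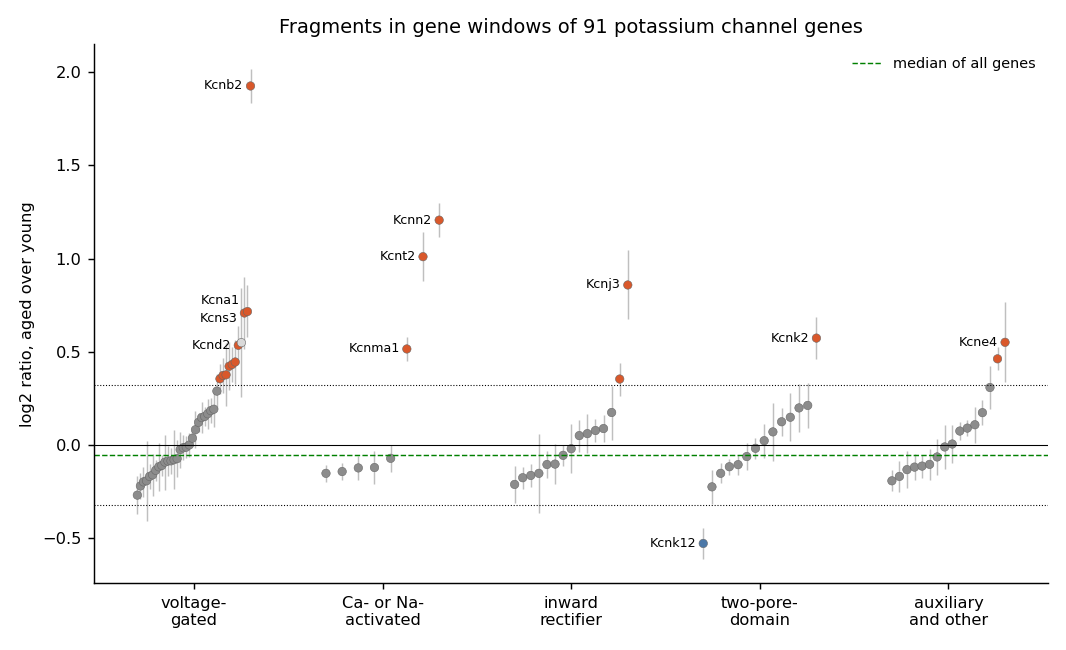
Log2 ratio of aged over young fragments in the gene window of each member, by subfamily, with 95% intervals for counting error as grey bars. Orange and blue points are called higher and lower (limits as dotted lines), the pale point has under 500 fragments, and the dashed line is the median of all genes at -0.06. Kcnb2 stands highest at 1.93 and Kcnk12 lowest at -0.53.

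By far the widest difference was at Kcnb2. Its window (chr1:15287254-15723750 with 20 kb added on either side) held 1271 young and 3728 aged fragments, 25.9 and 98.5 FPM, a ratio of 1.93 (1.83 to 2.02), or 3.80-fold. Kcnn2 on chromosome 18 had 1502 and 2675 fragments, 30.6 and 70.7 FPM, a ratio of 1.21 (1.12 to 1.30). Kcnt2 had 782 and 1216 fragments, a ratio of 1.01 (0.88 to 1.14). Kcnj3 had 410 and 574 fragments, a ratio of 0.86 (0.67 to 1.05). These 4 genes were the 4 highest windows and also stood among the 6 highest promoters with at least 50 fragments.

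Behind them the next 4 windows by ratio were Kcna1, Kcns3, Kcnk2 and Kcne4. Kcna1, which repolarises axons, had 754 and 956 fragments, a ratio of 0.72 (0.58 to 0.86). Kcns3, a modulatory subunit that is silent on its own and joins Kcnb channels, had 402 and 507 fragments, a ratio of 0.71 (0.52 to 0.90). Kcnk2, a leak channel opened by stretch and lipids, had 1186 and 1362 fragments, a ratio of 0.57 (0.46 to 0.69), although its promoter held only 3 and 11 fragments. Kcne4, an auxiliary subunit, had 344 and 389 fragments, a ratio of 0.55 (0.34 to 0.77). The other 10 windows past the fold were Kcnd2, Kcnma1, Kcnip4, Kcna6, Kcnh1, Kcnc2, Kcna5, Kcnh7, Kcnh8 and Kcnj11, named after their values were seen, with ratios from 0.35 to 0.54. Kcnd2, which carries the A-type current of neurons and heart, had 1473 and 1647 fragments, and Kcnma1, the large-conductance calcium-activated channel, had 3995 and 4406. Kcnip4, the longest window here at 1175 kb, had 4150 and 4412 fragments, a ratio of 0.46 (0.40 to 0.52), far below that of its promoter. Kcnj11, the pore of the ATP-sensitive channel of the pancreatic beta cell and muscle, had 2095 and 2066. Just inside and just outside the limit stood Kcnj11 (0.35) and Kcnmb2 (0.31).

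By subfamily, and against 4.7% of all genes, windows were higher in 10 of 37 voltage-gated members with enough fragments (27.0%), 3 of 8 calcium- or sodium-activated (Kcnn2, Kcnt2 and Kcnma1), 2 of 15 inward rectifiers, 1 of 14 two-pore-domain and 2 of 16 auxiliary members. The two-pore-domain count is near the background. The 5 other calcium- or sodium-activated members lay below 0.00, so this subfamily was split and had a median of -0.10.

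Close relatives of Kcnn2 and Kcnt2 did not share their ratios. Beside Kcnn2 at 1.21, its relatives Kcnn1, Kcnn3 and Kcnn4 were between -0.15 and -0.12, and beside Kcnt2 at 1.01, Kcnt1 was at -0.07. These relatives were picked out after their values were seen. The 5 genes of the Kcnq family, which carry the M-current of neurons and the slow delayed rectifier of the heart, lay between 0.04 and 0.18 and none was called. The windows of inward rectifiers ran from -0.21 (Kcnj15) to 0.86 (Kcnj3), with 7 of 15 above 0.00, and those of auxiliary members from -0.19 (Kcnip2) to 0.55 (Kcne4), with 8 of 16 above 0.00.

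Few windows were far below 0.00. Kcnk12, a two-pore-domain relative of Kcnk13, was the single lower window, with 3437 young and 1839 aged fragments, 70.1 and 48.6 FPM, a ratio of -0.53 (-0.61 to -0.45). Its promoter went from 855 to 488 fragments, a ratio of -0.43 (-0.60 to -0.27), which did not pass 1.5-fold, and 3 of its 6 peaks were lower. Kcna3, the main voltage-gated channel of T cells, had 1963 and 1257 window fragments, a ratio of -0.27 (-0.37 to -0.17), within the limits. Kcnk3, Kcnh6, Kcnj15, Kcng1, Kcnip2 and Kcns2 made up the rest of the 8 lowest windows, from -0.22 to -0.19. Kcnn4, which was not among the 8 lowest, had 10075 and 7044 fragments, 205 and 186 FPM, a ratio of -0.14 (-0.19 to -0.10). Beside Kcna3, the summed promoter level of the T cell markers was also lower in the aged library (2.81 and 1.29 FPM), at a level far under that of the HSC markers, and its part was not tested.

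Members were also grouped by 2 lists of cells they are known from, and 14 of the 18 higher windows were on the list for excitable cells. Of 42 members listed as known from neurons, heart or muscle, 41 had enough fragments and 14 (34.1%) were higher, with a median ratio of 0.14. Of 8 members listed as known from blood cells (Kcna3, Kcnn4, Kcnab2, Kcnk6, Kcnk13, Kcnj2, Kcne3 and Kcnk5), 0 were higher and the median was -0.10. With 4.7% of all genes called higher, a count of 0 among 8 is near that background and no result about these members. That list is loose, since some of its genes are as well known from other tissues, such as Kcnj2 from heart and muscle and Kcne3 from epithelia. Of the 41 others, 4 (9.76%) were higher, with a median of -0.02. At promoters the counts were 8 of 39, 0 of 8 and 3 of 32, against 3.67% of all genes. The 0 of 8 is again near the background. The lists were drawn up with earlier results of these data known, and no test of the difference between them was made. Kcnip3, a calcium sensor that also acts as a transcriptional repressor, had 7634 and 6205 window fragments, a ratio of 0.08 (0.03 to 0.12), and 249 and 264 promoter fragments, a ratio of 0.46 (0.20 to 0.71).

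**Figure D3:**
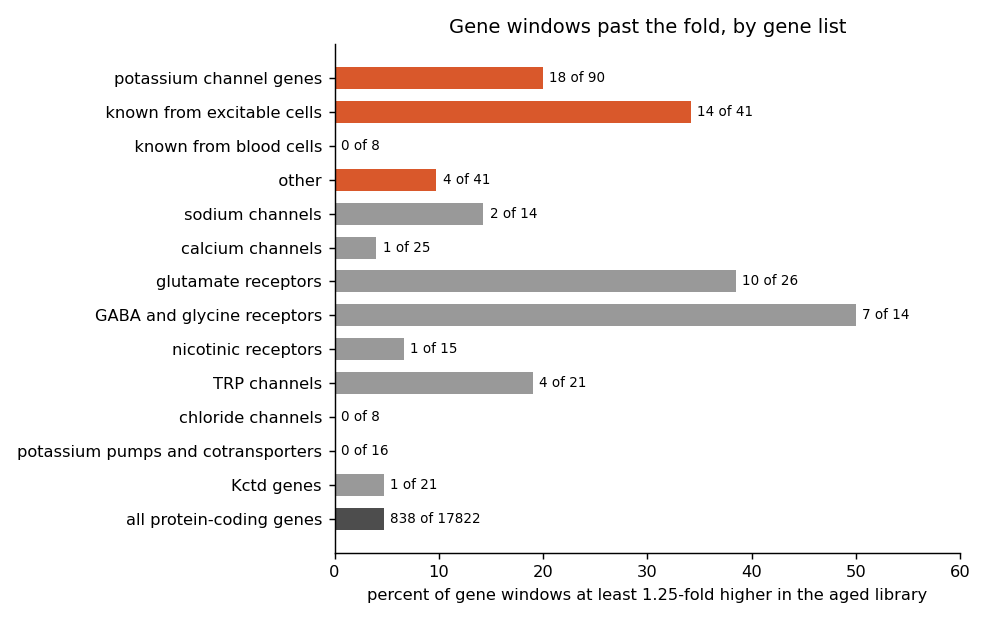
Percent of gene windows at least 25% higher in the aged library, with the number of windows beside each bar, for the potassium channel genes and their groups by where they are known (orange), other lists (grey) and all protein-coding genes (dark). GABA and glycine receptors (7 of 14) and glutamate receptors (10 of 26) lie above the potassium channel genes (18 of 90), and calcium channels (1 of 25) lie near the level of all genes.

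Among lists of channel and receptor genes, only the glutamate and the GABA and glycine receptor genes had a larger share of higher windows than the members (20.0%). Windows were higher in 10 of 26 glutamate receptor genes (38.5%) and 7 of 14 GABA and glycine receptor genes, and in 2 of 14 sodium channel, 4 of 21 TRP channel, 1 of 15 nicotinic receptor and 1 of 25 calcium channel genes. They were higher in 0 of 8 chloride channel genes, 0 of 16 genes of sodium-potassium pumps and potassium cotransporters, and 1 of 21 Kctd genes. Kctd genes carry a domain named after potassium channels but encode no channel. Of all genes 4.7% were higher. The nicotinic receptor, calcium channel, chloride channel, pump and cotransporter and Kctd counts are near that background and no result about those lists.

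All genes were sorted into 5 equal groups by promoter level summed over both libraries. In the lowest group no promoter had enough fragments, and 2 of 8 member windows were higher, against 14.5% of all genes there. In the second-lowest group 10 of 32 member promoters (31.3%) were higher, against 15.5% of all genes there, and 11 of 35 member windows (31.4%), against 9.15%. In the middle group 1 of 41 member promoters was higher, against 2.33% of all genes, and 5 of 41 windows (12.2%), against 5.31%. The 6 members in the top 2 groups, among them Kcnab2, Kcnj2 and Kcnk5, had no higher promoter or window. Of all genes in these 2 groups, 0.192% and 0.0240% of promoters and 1.03% and 0.336% of windows were higher. This is near that background and no result about these members. CpG-rich promoters, with an observed to expected CpG ratio of at least 0.6 and at least 50% GC within 500 bp, made up 38.5% of members and 45.7% of all genes. Windows were higher in 6 of 35 members with and 12 of 55 members without a CpG-rich promoter, against 2.90% and 6.74% of all genes of each kind.

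Within the windows, signal inside and outside peaks moved the same way. Peaks came from the cut sites of each library and were merged, so that a peak seen in either library was counted in both. In the Kcnb2 window the fragments inside peaks went from 339 to 1589, a ratio of 2.60, and those outside from 932 to 2139, a ratio of 1.57. In the Kcnn2 window they went from 605 to 1555 inside, a ratio of 1.74, and from 897 to 1120 outside, a ratio of 0.69. Among the 18 higher windows 13 passed the same limit both inside and outside peaks, and the lowest ratio outside peaks was 0.28. Cells, library and depth are shared by the 2 counts.

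At the higher windows the differences often reached past the genes. In the stretches from 20 to 220 kb beyond each end of the gene, the median ratio was -0.05 for all members and -0.04 for all genes. Around the 18 higher windows it was 0.19, and 16 of these 18 flanks were above 0.00, 6 of them by at least 25%. The shares of all genes with such flanks were not taken, so these counts have no background beside them. The window ratio was above that of the flanks in 16 of 18, with intervals that did not overlap in 14. The 18 were picked by window ratio and not by flank ratio, so the choice itself favours such counts. At Kcnb2 the flanks had 3632 and 3869 fragments, a ratio of 0.47 (0.40 to 0.53), at Kcnn2 0.86, and at Kcnk12 -0.09 (-0.13 to -0.05). The exceptions were Kcna5, with flanks at 0.68 and its window at 0.38, and Kcnh8, with flanks at 0.42 and its window at 0.36. The Kcna5 flanks take in the neighbouring Kcna1 and Kcna6. On the other side of Kcna5 they take in the 20 kb bins that start 240 and 260 kb from the Kcna1 TSS. These bins went from 297 to 629 and from 296 to 557 fragments. The part of the neighbours or of these bins was not tested. Of the 18, 5 lay on chromosome 1 and 4 on chromosome 6, where the fragments of the whole chromosome differed by 0.02 on the log2 scale in both cases.

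**Figure D4:**
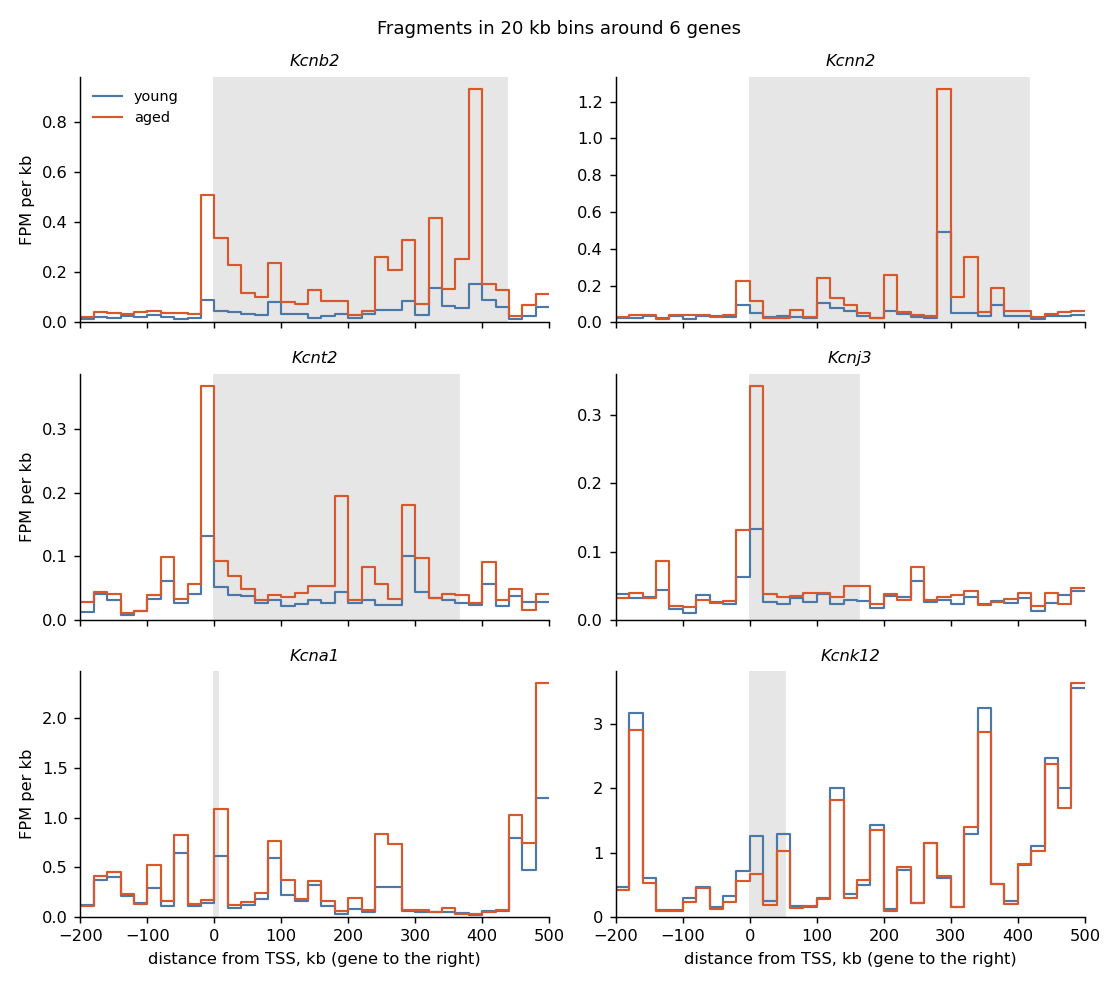
Level in FPM per kb in bins of 20 kb around the TSS of 6 members, in the direction of the gene, for the young (blue) and aged library (orange), with the gene body shaded and a separate scale for each gene. At Kcnb2 the aged library is higher along the gene from the TSS on, at Kcnj3 mainly in the bins at the TSS, and at Kcnk12 the young library is higher at the gene while most bins beyond it are alike.

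All windows together held 1013 peaks, from 1 to 49 per window with a median of 10, and 803 had at least 50 fragments. Of these, 116 (14.4%) were at least 1.5-fold higher in the aged library, against 12.3% of all autosomal peaks, and 53 (6.60%) were lower, against 7.24%. The median ratio was 0.02 (-0.01 to 0.05) and that of all peaks -0.02. Over single peaks the members thus stood near the background. The 18 higher windows, called on the same fragments, held 65 of the 116 higher peaks. In the Kcnb2 window 23 of 23 peaks had a ratio above 0.00 and 8 were called higher, in the Kcnn2 window 17 of 17 and 14, and in the Kcnt2 window 6 of 6 and 3. None of the 18 higher windows held a lower peak, and 2 of them (Kcne4 and Kcnc2) held no higher peak.

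Among peaks with at least 100 fragments, the highest ratio was in an intron of Kcnn2, with 2 young and 98 aged fragments, a ratio of 5.42 (4.10 to 9.05). The Kcnb2 intron peak shown above (chr1:15678881-15679420 in full) had 24 and 270 fragments, 0.489 and 7.13 FPM, a ratio of 3.81 (3.26 to 4.53). A peak at the Kcnip4 promoter had 20 and 142 fragments (3.14), one at the Kcnb2 promoter 64 and 334 (2.74), and a second intron peak of Kcnn2 20 and 98 (2.61). The Kcnj6 intron peak shown above had 23 and 108 fragments, 0.469 and 2.85 FPM, a ratio of 2.56 (1.95 to 3.32), in a G-protein-gated inward rectifier gene whose window was not called. All these peaks reached the limit of 100 fragments mainly through the aged library and were picked by their ratio. The choice itself therefore favours wide ratios, and the same holds in reverse for the lowest peaks below.

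The lowest peaks lay near genes whose windows were not called. The peak 6182 bp from the TSS of Kcnv2, a silent subunit of photoreceptors, had 96 young and 25 aged fragments, a ratio of -1.53 (-2.26 to -0.92). One between genes in the shared window of Kcnj9 and Kcnj10 had 110 and 37 fragments (-1.17), and one near Kcnk13 had 168 and 59 (-1.12). The 4 peaks with the most fragments were at promoters or exons of other genes in the windows of Kcnn1, Kcnj14, Kcnk4 and Kcnk6, with ratios from -0.22 to -0.14.

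The core of the silencer element was in the central 200 bp of 6 member peaks (0.592%), against 0.164% of all autosomal peaks. Among them were peaks in the windows of Kcnab2, Kcnn4, Kcnh4, Kcnh2 and Kcnt1. Of the 6, 5 had at least 50 fragments and a median ratio of -0.24, and the 215 such peaks of the genome had one of -0.21. The Kcnt1 peak, at 224 and 191 fragments, had the highest ratio of the 6 at 0.15 (-0.14 to 0.43). AP-1 motifs (TGANTCA) were in 9.18% of member peaks and 9.32% of all peaks, with a median ratio of 0.14 in members and 0.13 over all. GATA motifs (AGATAA) were in 6.71% and 8.92%, RUNX motifs (TGTGGTT) in 7.70% and 9.30%, and PU.1 motifs (GAGGAAGT) in 6.91% and 6.76%. CEBP motifs (TTGCNNAA) were in 7.80% and 8.31%, CRE (TGACGTCA) in 0.296% and 0.448%, and STAT (TTCCNGGAA) in 0.395% and 0.837%. Both strands were searched and different motifs may overlap.

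Fragments from many cells made up the differences. To set the 2 libraries at equal depth, each cell was thinned at random to 3000 autosomal fragments, which every kept cell had. A fragment in the Kcnb2 window was then seen in 7.28% of young cells (6.57% to 8.05%) and 23.2% of aged cells (21.8% to 24.6%), and before thinning in 21.5% and 57.3%. For Kcnn2 the shares were 8.33% and 18.4%, for Kcnt2 4.01% and 9.37%, and for Kcnk12 17.8% and 13.5%. Before thinning, the 1950 aged cells with a Kcnb2 fragment held at most 12 each. After thinning the variance of the Kcnb2 counts over cells was 1.14 times their mean in aged and 1.03 times in young cells, where counts that follow Poisson sampling give 1. At the Kcnb2 intron peak shown above, 0.491% of young and 7.28% of aged cells held a fragment before thinning.

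**Figure D5:**
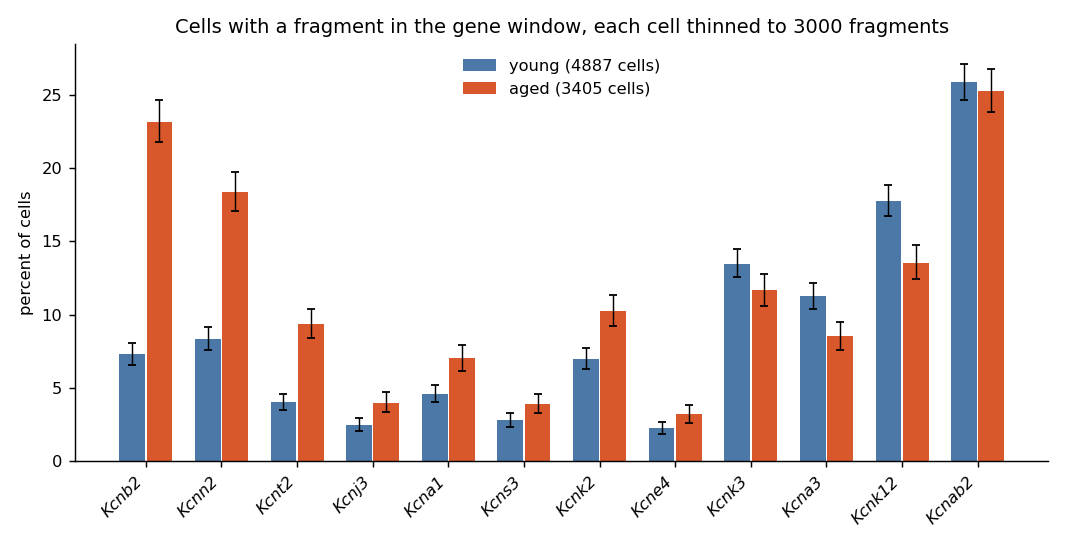
Percent of young (blue) and aged cells (orange) with at least 1 fragment in the gene window after each cell was thinned to 3000 fragments, with exact binomial 95% intervals, for the 8 highest and 3 lowest windows by ratio and for Kcnab2. The share is over 3 times as high in aged cells at Kcnb2 (7.28% and 23.2%) and alike at Kcnab2 (25.9% and 25.3%).

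Over all members together the difference per cell was small. Thinned cells held a median of 2 fragments in member promoters in both libraries, with means of 1.83 in young and 1.90 in aged cells. In member windows the median was 18 in both, with means of 17.9 and 18.4, and 42.8% of young cells (41.4% to 44.2%) and 47.8% of aged cells (46.1% to 49.5%) held more than 18. Doublets were kept, and without the 5% of cells with the most fragments in each library 18 windows were again higher and 1 lower.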

How the data were processed

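Sorted HSCs were measured in 2 single-cell ATAC-seq libraries, grouped by age from the labels. Per the labels and the study's methods, the authors made the libraries with a 10x kit, processed them with Cell Ranger ATAC on mm10 and named Signac. They deposited lists of unique fragments and tables of counts per barcode, which were used with no normalization. Listed fragments equalled the deposited counts for all 239185 and 217516 barcodes. Cells called by the authors with 3000 to 20000 in-peak fragments were kept, and a fragment counted once where an end lay in a region. Genes were taken from GENCODE M21, which uses the sequence of mm10. Peaks were called on windows of 150 bp (Poisson against the genome or 10000 bp, q under 0.001), merged across 50 bp and kept from 100 bp. Ratios were scaled to autosomal fragments with a pseudocount of 1, with exact conditional binomial intervals, and order-statistic intervals for medians. With 1 library per age there was no test. Counting was tested on simulated data.

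Named members were the 8 with the most promoter fragments, the 6 highest and 6 lowest promoter ratios, the 8 highest and 8 lowest window ratios, and Kcnb2, Kcnip3, Kcnk12, Kcna3 and Kcnn4. Peaks named were the 6 highest, 4 lowest and 4 largest. The members and lists were chosen with earlier results of these data known. Alternatives covered scaling (with TMM factors from edgeR 4.0.16 in R 4.3.3), cells, windows and peaks. Python 3.11.15, numpy 2.4.6 and scipy 1.17.1 were used. Some members and peaks under the rule are not reported here.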

Additional observations from a re-analysis of the deposited data

Results flagged for a closer look

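Barcodes that were not called as cells entered no comparison above and were counted on their own. They had 2888697 young and 5035775 aged autosomal fragments, of which 194 and 732 lay in the Kcnb2 window, a ratio of 1.11 (0.88 to 1.35) of aged over young. The ratios in these barcodes were 0.92 (0.69 to 1.16) for Kcnn2, 0.91 (0.63 to 1.21) for Kcnt2 and 0.77 (0.39 to 1.19) for Kcnj3, below those in cells for Kcnb2 (1.93) and Kcnn2 (1.21). Over the windows of all members they had 17620 and 32329 fragments, a ratio of 0.07 (0.05 to 0.10). Over their promoters the fragments were 1395 and 1680, and the ratio was -0.53 (-0.64 to -0.43). The same ratios over all genes were not taken in these barcodes, so neither sum is a result about the members.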

How the results depend on the processing

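Of 988 alternative values for 72 member genes' and peaks' ratios, 913 lay within the counting interval of the ratio given. No ratio past its limit changed sign, while 31 values of ratios within the limits did, among them the Kcns2 window outside peaks (0.26) and the promoters of Kcnh6 (0.08) and Kcnn4 (0.20) with thinned cells. The median over windows (0.00) was lowest at -0.0074, with thinned cells, and highest at 0.078, with TMM scaling. The number of higher promoters ranged from 10 to 16 (11 in the report), the most with TMM scaling, which raised every ratio by 0.08. Lower promoters (1) numbered 0 with short fragments or at least 100 fragments, 2 over 2 kb on either side, 4 with every cut site counted and 5 from at least 20 fragments. Higher windows numbered 10 to 20 (18 in the report), and the 10 came from cells thinned to 3000 fragments, where 79 windows in place of 90 had enough fragments. Lower windows (1) numbered 2 with thinned cells, short fragments or fragments outside peaks, and 3 inside peaks or over the gene body alone. The median over peaks (0.020) was 0.052 when scaled to fragments in peaks, 0.10 with TMM and -0.015 for peaks with at least 200 fragments. Higher and lower peaks (116 and 53) numbered 52 and 28 with thinned cells and 31 and 8 from at least 200 fragments, settings that leave 473 and 439 peaks in place of 803. No paired analysis was possible because each age has 1 library and no result comes from a test. For the same reason no replicate could be left out. Depth limits the 12 members with under 50 promoter fragments, for which no call was made.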
